A study of Mus musculus with 8 samples.

Results

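The dual-specificity MAP kinase phosphatases described here are 10 named genes, Dusp1, Dusp2, Dusp4, Dusp5, Dusp6, Dusp7, Dusp8, Dusp9, Dusp10 and Dusp14, chosen by name from 21291 gene rows, and all 10 were present and tested. They were measured by polyA-selected RNA sequencing of kidney pairs from E14.5 mouse embryos. The 4 mutant embryos carried Six2-GFPcre tg/+ with Etv4-/- and Etv5fl/fl, and the 4 control embryos carried the same transgene with Etv4+/- and Etv5fl/fl. The Six2-GFPcre transgene drives Cre recombinase in nephron progenitors, so both groups carried Cre and homozygous floxed Etv5, and the labelled genotypes differ at Etv4, whose null allele the labels do not limit to those cells. The series asks what loss of the related ETS transcription factors Etv4 and Etv5 from nephron progenitors and the cells they give rise to does to the kidney.

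MAP kinase phosphatases remove phosphate from both the threonine and the tyrosine of the activation loop of ERK, JNK and p38, and so switch these kinases off. Many of their genes are themselves switched on by the kinase they inactivate, which makes them part of a negative feedback loop. In the developing kidney, FGF signalling to nephron progenitors and GDNF-RET signalling to the ureteric tip both run through ERK, and Etv4 and Etv5 act downstream of these receptors. Dusp6, Dusp7 and Dusp9 encode cytoplasmic phosphatases that prefer ERK. Dusp1, Dusp2, Dusp4 and Dusp5 encode nuclear phosphatases that are induced by growth factors or stress, and the Dusp5 phosphatase among them is specific for ERK. Dusp8 and Dusp10 encode phosphatases directed at JNK and p38, and Dusp14 a small phosphatase that lacks the kinase-binding domain of the others.

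The promoters of Dusp6, Dusp5 and Dusp7 are shown because these 3 genes had the lowest unadjusted p-values of the 10 and the mutated gene encodes a DNA-binding factor. Each sequence is the RefSeq window on GRCm38.p6 from 250 bases before to 50 bases after the gene's start, read 5′ to 3′ on the gene's strand, which is plus for all 3. Capitals mark each GGAA, the core letters shared by ETS-family binding sites, on either strand (TTCC where it lies on the other strand), and in Dusp5 also the CArG boxes, the motif of serum response factor.
Dusp6, chr10:99262981-99263280: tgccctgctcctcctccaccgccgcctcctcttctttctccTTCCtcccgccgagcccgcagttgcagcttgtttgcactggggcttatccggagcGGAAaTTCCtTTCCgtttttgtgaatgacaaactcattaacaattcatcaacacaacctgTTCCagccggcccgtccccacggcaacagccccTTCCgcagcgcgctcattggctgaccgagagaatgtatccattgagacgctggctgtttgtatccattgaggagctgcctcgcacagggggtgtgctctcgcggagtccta
Dusp5, chr19:53528895-53529194: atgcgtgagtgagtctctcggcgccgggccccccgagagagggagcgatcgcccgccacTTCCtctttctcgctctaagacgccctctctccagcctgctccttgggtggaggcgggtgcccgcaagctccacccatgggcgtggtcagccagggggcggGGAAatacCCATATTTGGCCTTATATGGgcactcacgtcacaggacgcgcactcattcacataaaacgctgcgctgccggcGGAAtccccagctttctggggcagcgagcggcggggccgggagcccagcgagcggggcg
Dusp7, chr9:106368382-106368681: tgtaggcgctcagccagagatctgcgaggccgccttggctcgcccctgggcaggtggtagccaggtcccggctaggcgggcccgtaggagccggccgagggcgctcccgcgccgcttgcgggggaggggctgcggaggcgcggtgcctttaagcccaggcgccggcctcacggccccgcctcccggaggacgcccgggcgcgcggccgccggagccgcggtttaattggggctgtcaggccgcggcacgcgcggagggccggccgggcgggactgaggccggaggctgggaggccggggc

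The Dusp6 window held 6 GGAA cores, Dusp5 held 3 and Dusp7 held 0. Such a core is common: 96.0% of 32851 promoter windows of this length held at least 1, 15.7% held 6 or more and 4.02% held none. The longer ETS motif CCGGAA, searched on both strands and overlapping the core, was in 14.9% of all windows and in 1 of the 8 Dusp windows available, that of Dusp14. The Dusp5 window held 2 CArG boxes side by side, from 82 to 73 and from 72 to 63 bases before the start, whereas 1.63% of all windows held at least 1 and 0.0183% held 2 or more; this motif was searched after the Dusp5 sequence had been read. A match of letters is a description of the window and does not show a bound site. Dusp4 and Dusp9 had no sequence in the table used.

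Etv4 was measured first as a check of the labels. It had 294, 281, 219 and 164 normalized counts in mutants 1 to 4, against 2816, 2803, 2816 and 2311 in controls 1 to 4. A normalized count here is an estimated read count divided by a factor for the depth of its library. Etv4 fell in the mutants by limma (log2 fold change -3.51, SE 0.18, adjusted p = 2.6e-05). Etv5 averaged 2120 ± 511 normalized counts in mutants and 3614 ± 491 in controls (SD, n = 4 each), and did not pass the threshold (log2 fold change -0.79, SE 0.17, limma adjusted p = 0.106), although its groups did not overlap. The authors' deposited table gives Etv5 a log2 fold change of -0.85 and an adjusted p of 4.79e-05. The authors' mean normalized counts of Etv4, Etv5, Dusp5, Dusp6 and Dusp14 kept nearly the same proportion to the means here without control 4. Over all 8 libraries used here the proportion varied between these genes. The authors' values thus appear to rest on a fit without control 4, although no source used here says so. Estimated counts per library summed to between 35308934 and 38824018 in mutants, and to between 34114519 and 39548327 in controls 1 to 3 but 15515139 in control 4, where 18.4% of the counts came from Lars2. The Y-linked gene Ddx3y was at 0 in each mutant and between 1553 and 1629 normalized counts in the controls, so embryo sex and genotype cannot be told apart. Litters are not assigned in the labels, and every library came from its own kidney pair.

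None of the 10 Dusp genes passed the threshold of 0.05 on the limma p adjusted over 14974 genes (0.301% of all genes tested passed, 0.0801% higher and 0.220% lower). At an unadjusted limma p below 0.05 there were 3, Dusp5, Dusp6 and Dusp7, all lower in mutants, where 12.0% of all genes had such a p and 5.72% had it in the lower direction. By limma voom, which models the counts' own precision, 0 passed. For 2 of the 10, Dusp6 and Dusp7, all mutant libraries lay below all control libraries; 8.60% of all genes had groups that did not overlap, and 4.43% had them with the mutants lower. By class, the cytoplasmic ERK-selective genes had a median log2 fold change of -0.52, with 2 of 3 negative. The nuclear inducible genes had 2 negative and 2 positive and a median of -0.031. Under scaling by total count it became 0.10, a setting that moved the median of all genes to 0.14. The JNK/p38-directed or other genes had 3 of 3 positive and a median of 0.51. The median over all genes tested was 0.0087. No test was made across the classes.

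**Figure D1:**
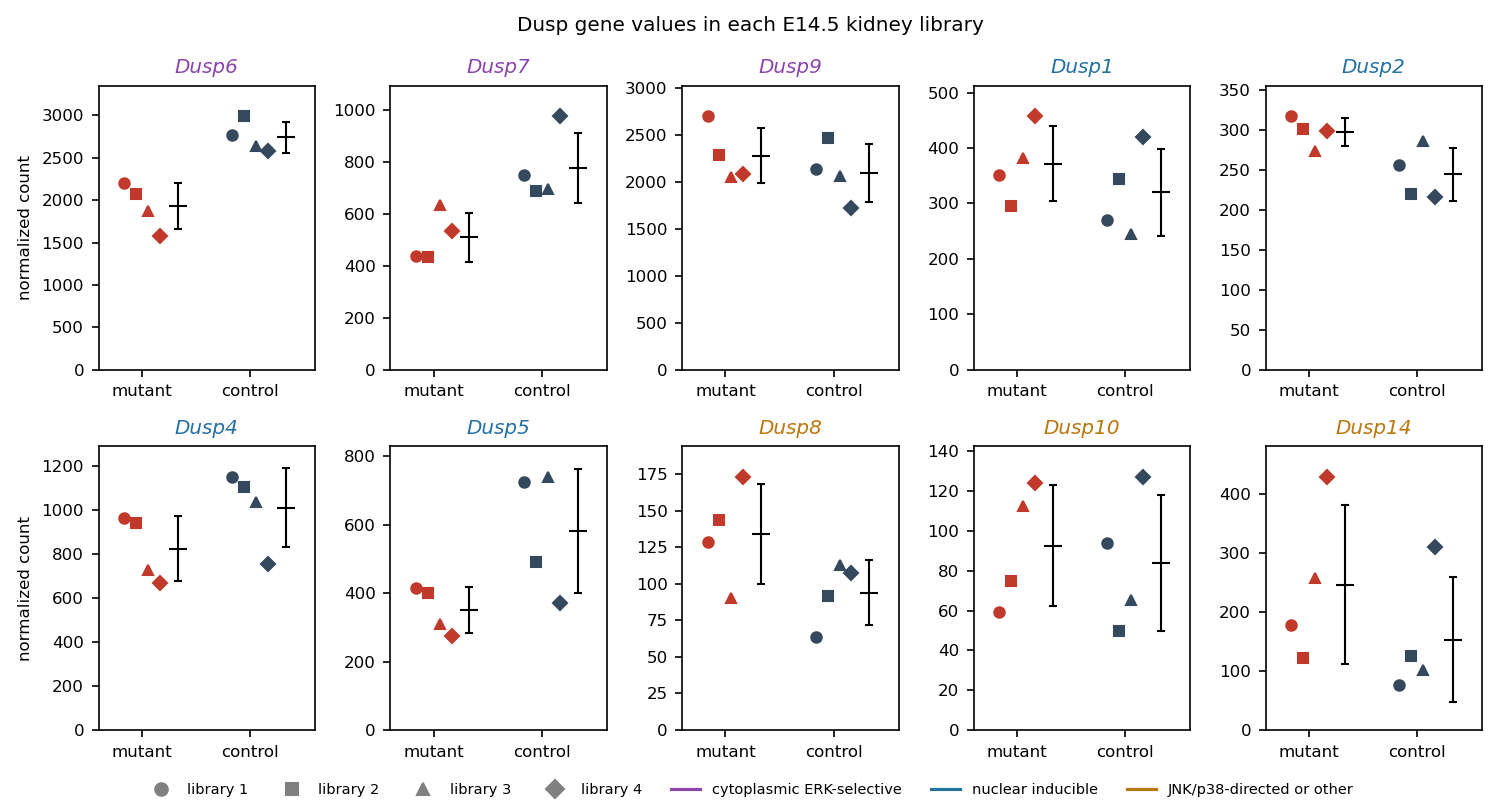
Normalized counts of the 10 Dusp genes in each library (points, linear axes from 0), mutants left of controls, with the mean and SD of 4 libraries beside each group; title colours give the class. In the Dusp6 panel the mutants lie between 1575 and 2201 and the controls between 2579 and 2989, and in the Dusp7 panel the mutants lie between 434 and 636 and the controls between 689 and 977.

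Dusp6 encodes the ERK phosphatase best known as an FGF feedback gene. It had 2201, 2071, 1867 and 1575 normalized counts in mutants 1 to 4, against 2768, 2989, 2635 and 2579 in controls 1 to 4. The highest mutant lay below the lowest control, and the mutant mean was 0.703 of the control mean. The log2 fold change was -0.52 (SE 0.11, 95% interval -0.76 to -0.27), with an unadjusted p of 0.000895 and a limma adjusted p of 0.101. An exact two-sided permutation test of Dusp6 alone gave p = 0.0286, the smallest that 4 against 4 libraries allow. Every gene whose groups do not overlap gets this value, and 8.60% of all genes tested had such groups. With mutant 4 and control 4 left out, Dusp6 passed at a limma adjusted p of 0.0396, with a log2 fold change of -0.45. It did not pass in mutants 1 and 2 and controls 1 and 2 alone (adjusted p = 0.176) or with the number in the library name as a block (0.0980). In the authors' deposited table, which lists 644 genes with adjusted p of at most 0.0498, Dusp6 has a log2 fold change of -0.53 and an adjusted p of 0.00103.

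Dusp7 encodes a close relative of the Dusp6 phosphatase that also acts on ERK in the cytoplasm. It had 438, 434, 636 and 535 normalized counts in mutants 1 to 4, against 751, 689, 696 and 977 in controls 1 to 4. The groups again did not overlap, but the order within them differed from that of Dusp6: mutant 3 and control 4 were the highest libraries of their groups for Dusp7, and mutant 4 and control 4 the lowest for Dusp6. The log2 fold change was -0.61 (SE 0.16, 95% interval -0.97 to -0.25), with an unadjusted p of 0.00373 and a limma adjusted p of 0.161. The exact two-sided permutation p was again 0.0286, which follows from groups that do not overlap. Dusp7 is not listed in the authors' deposited table.

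Dusp9, the third gene of this class, encodes an ERK phosphatase needed in the mouse placenta and lies on the X chromosome. It had 2696, 2282, 2049 and 2088 normalized counts in mutants 1 to 4, against 2135, 2463, 2062 and 1719 in controls 1 to 4. The groups overlapped widely. The log2 fold change of 0.12 (SE 0.13, 95% interval -0.16 to 0.41, limma adjusted p = 0.736) did not pass, and the interval leaves room for a value a little below or well above 0. Y-linked transcripts were at or near 0 in mutants (Kdm5d at most 12.2 normalized counts) and high in controls (Kdm5d 702 to 792). The 498 X-linked genes tested are therefore given beside Dusp9: their median log2 fold change was 0.038 and 0.602% of them passed. The part of X dosage in the Dusp9 value was not tested.

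**Figure D2:**
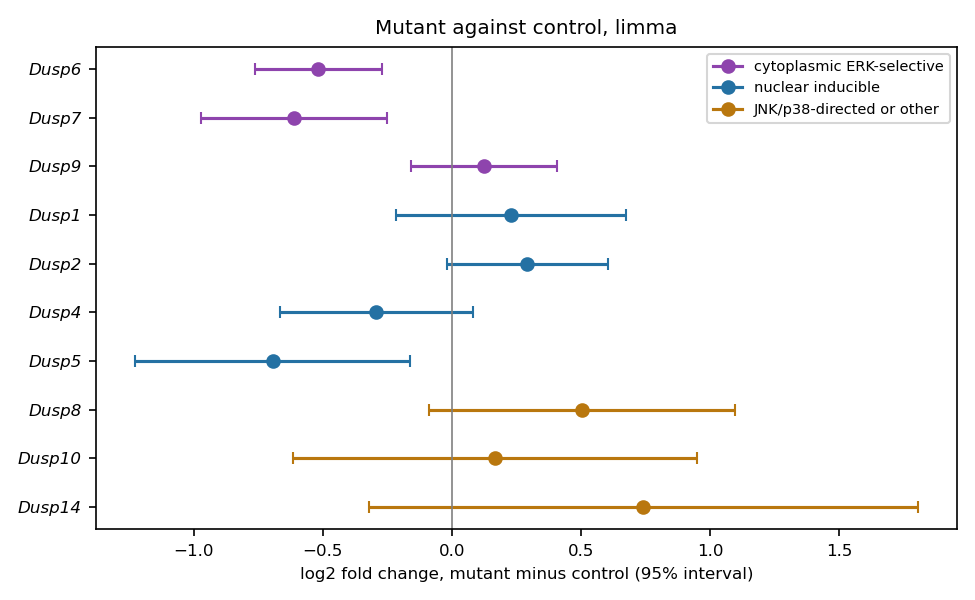
Log2 fold change of each Dusp gene, mutant minus control, with its 95% interval from limma, coloured by class; the vertical line marks 0. The intervals of Dusp6, Dusp7 and Dusp5 lie below 0 and those of the other 7 genes include 0; these intervals are not adjusted for the number of genes tested.

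Dusp6 and Dusp9 were the most abundant of the 10 per kilobase of annotated exon, and their order differed between the groups. Dusp6 had 616 ± 87.1 normalized counts per kilobase in mutants and 876 ± 58.1 in controls, and Dusp9 had 837 ± 109 in mutants and 769.5 ± 112 in controls (SD, n = 4 each). The ratio of Dusp6 to Dusp9, each per kilobase, was 0.709, 0.789, 0.792 and 0.656 in mutants 1 to 4, against 1.13, 1.05, 1.11 and 1.30 in controls 1 to 4. Dusp9 thus had the higher level per kilobase in each of the 4 mutant libraries and Dusp6 in each of the 4 control libraries. A ratio within a library does not depend on how depth is corrected. The mean log2 ratio was lower in mutants by a difference of -0.64, and its SD was 0.13 in each group. This pair was chosen with its values in view and is given without a test. Among the ratios of all pairs of genes tested that were above 0 in every library, 8.43% did not overlap between the groups. Of the other pairs of this class, the ratio of Dusp6 to Dusp7 overlapped between the groups, from 3.15 to 5.38 in mutants and from 2.83 to 4.64 in controls. The ratio of Dusp7 to Dusp9 overlapped too, from 0.132 to 0.252 in mutants and from 0.227 to 0.461 in controls.

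**Figure D3:**
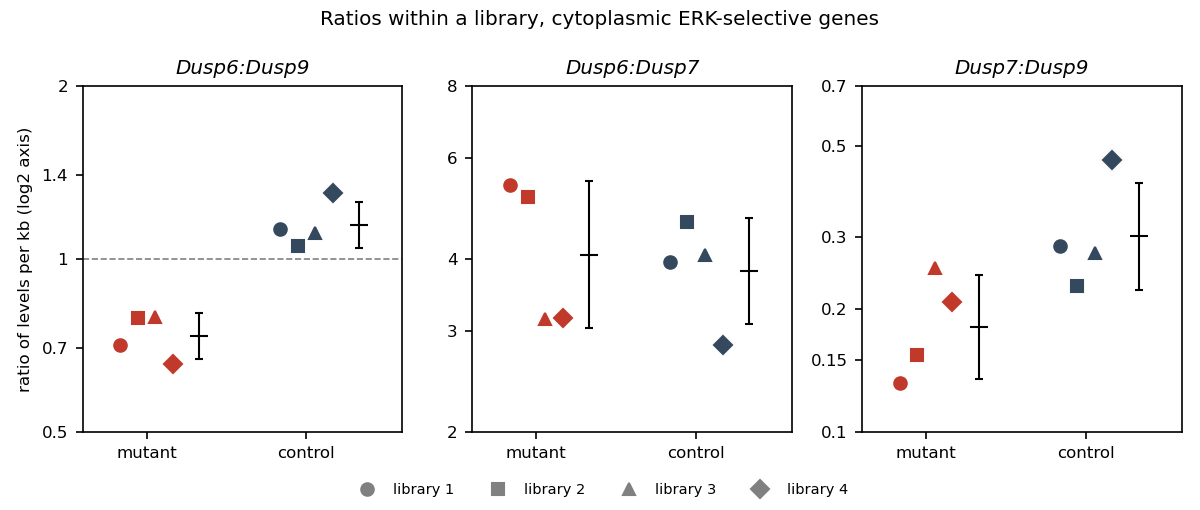
Ratios of levels per kilobase within each library for the 3 pairs of cytoplasmic ERK-selective genes, on log2 axes that differ between panels, mutants left of controls, with the mean and SD of the log2 ratio. The Dusp6 to Dusp9 ratio lies between 0.656 and 0.792 in mutants and between 1.05 and 1.30 in controls, on either side of the dashed line at 1, while the groups overlap in the other panels.

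Among the nuclear inducible genes, Dusp5 had the largest difference. Dusp5 encodes a phosphatase that is specific for ERK and holds it in the nucleus. It had 415, 401, 311 and 275 normalized counts in mutants 1 to 4, against 724, 491, 741 and 371 in controls 1 to 4. The highest control was 2.00-fold the lowest, and control 4 lay below mutants 1 and 2, so the groups overlapped. The log2 fold change was -0.69 (SE 0.24, 95% interval -1.22 to -0.16), with an unadjusted p of 0.0158 and a limma adjusted p of 0.277. With 1 library left out, the adjusted p ran from 0.0701 (without control 4) to 0.554 (without mutant 3) and the log2 fold change from -0.89 to -0.56. The exact two-sided permutation p was 0.0857. In the authors' deposited table Dusp5 has a log2 fold change of -0.89 and an adjusted p of 0.000811. Limma without control 4 gave -0.89 too, and the authors' fit appears to have left that library out. The GENCODE annotation places an antisense gene over 547 exon bases of Dusp5; no source used here says whether the counting used strand, so reads from the pair cannot be told apart.

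Dusp4 encodes a nuclear phosphatase that acts on ERK and JNK. It had 964, 939, 725 and 669.8 normalized counts in mutants 1 to 4, against 1151, 1103, 1035 and 753 in controls 1 to 4. All 4 mutants lay below the control mean and 2 below the lowest control, and the test did not pass (log2 fold change -0.29, SE 0.17, limma adjusted p = 0.528; 0.18 without depth correction, a setting that moved the median of all genes to 0.48). The proportion of Dusp4 to Dusp5 varied little between the mutants measured. The ratio of Dusp4 to Dusp5 per kilobase was 2.10, 2.12, 2.11 and 2.20 in mutants 1 to 4, against 1.44, 2.03, 1.26 and 1.83 in controls 1 to 4. The mutant ratios all lay above the control ratios and spread over a much narrower range. This pair, too, was chosen with its values in view, and 8.43% of the ratios of all gene pairs did not overlap between the groups. How often gene pairs had so narrow a range was not counted. Read sampling at 313 to 509 estimated counts of Dusp5 in mutants would on average give a wider spread. The narrow range therefore does not show a fixed proportion.

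Dusp1, an immediate early gene of growth factor and stress responses, stood on the other side. It had 352, 295, 382 and 457 normalized counts in mutants 1 to 4, against 271, 344, 245 and 421 in controls 1 to 4. The groups overlapped, and the log2 fold change of 0.23 (SE 0.20, 95% interval -0.22 to 0.67, limma adjusted p = 0.690) did not pass. Dusp2, best known from activated lymphocytes, had 317, 302, 274 and 299 normalized counts in mutants 1 to 4, against 256, 219.6, 287 and 216 in controls 1 to 4. For Dusp2, 3 of 4 mutants lay above the highest control, with a log2 fold change of 0.29 (SE 0.14, 95% interval -0.019 to 0.60, limma adjusted p = 0.447). Of the 6 ratios between nuclear genes, 3 did not overlap between the groups: Dusp2 to Dusp4, Dusp2 to Dusp5 and Dusp4 to Dusp5. These 3 ratios share the same 3 genes and are not independent. Among all pairs of genes tested that were above 0 in every library, 8.43% of ratios did not overlap. The ratio of Dusp2 to Dusp5 per kilobase ran from 0.930 to 1.34 in mutants and from 0.437 to 0.719 in controls.

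Dusp8 and Dusp10 had the lowest levels per kilobase of the 10 in both groups. Dusp8, a phosphatase of JNK and p38 known from brain and heart, had 129, 144, 90.6 and 173 normalized counts in mutants 1 to 4, against 63.6, 91.6, 113 and 108 in controls 1 to 4. For Dusp8, 3 of 4 mutants lay above the highest control and mutant 3 lay below 3 of the controls (log2 fold change 0.51, SE 0.27, 95% interval -0.088 to 1.10, limma adjusted p = 0.492). Dusp10, a JNK and p38 phosphatase, had 59.5, 75.1, 112 and 124 normalized counts in mutants 1 to 4, against 94.0, 49.8, 65.2 and 127 in controls 1 to 4. The Dusp10 groups covered almost the same range, and limma gave 0.17 as the log2 fold change (SE 0.35, adjusted p = 0.888). The Dusp10 difference was -0.033 between mutants 1 and 2 and controls 1 and 2, whose library names hold one common number. The counting behind these genes was thin in control 4, at 38.9 estimated reads for Dusp8 and 46 for Dusp10.

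Dusp14 varied most of the 10 genes. It had 178, 122, 258 and 429.8 normalized counts in mutants 1 to 4, against 76.5, 126, 102 and 310.0 in controls 1 to 4. The highest library was 3.53-fold the lowest among mutants and 4.05-fold among controls. Mutant 4, mutant 3 and control 4 were highest in their groups or near it. The log2 fold change of 0.74 (SE 0.48, 95% interval -0.32 to 1.80, limma adjusted p = 0.573) was 1.15 without control 4 and 0.42 without mutant 4. The authors' deposited table gives Dusp14 a log2 fold change of 1.28 and an adjusted p of 0.0165. That fold change lies nearer to the limma value without control 4 (1.15) than to that of all libraries (0.74). The authors' fit appears to have left out control 4, so the 2 results may not rest on the same samples. Dusp14 lies on chromosome 11 (84048041 to 84069261, GRCm38, minus strand), 17.7 megabases from Etv4, and 0.344% of the 1162 genes tested on that chromosome passed.

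Per kilobase, the order of the 10 genes in mutants was Dusp9, Dusp6, Dusp4, Dusp7, Dusp2, Dusp5, Dusp14, Dusp1, Dusp10 and Dusp8. In controls it was Dusp6, Dusp9, Dusp4, Dusp5, Dusp7, Dusp2, Dusp1, Dusp14, Dusp10 and Dusp8. In mutants the ranges of neighbours did not overlap between Dusp9 and Dusp6, Dusp6 and Dusp4, Dusp4 and Dusp7, and Dusp1 and Dusp10, and in controls between Dusp9 and Dusp4, and Dusp7 and Dusp2. The ranges of all other neighbours overlapped, although Dusp6 was above Dusp9 within each control library. The lowest gene, Dusp8, had 27.5 ± 7.05 normalized counts per kilobase in mutants and 19.3 ± 4.54 in controls (SD, n = 4 each).

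Mutant 4 and control 4, whose library names hold one common number, held the extreme value of their group for the same 6 genes. Dusp4, Dusp5 and Dusp6 were lowest in mutant 4 among mutants and in control 4 among controls, and Dusp1, Dusp10 and Dusp14 were highest in both. Control 4 was also the lowest control for Dusp2 and Dusp9 and the highest for Dusp7, and mutant 4 the highest mutant for Dusp8. How often all genes tested had their extreme values in these libraries was not counted. Markers of differentiated nephron scored highest in mutant 4 among mutants and in control 4 among controls. A marker score is the mean over a list of the log2 normalized count minus each gene's mean over the 8 libraries. In mutant 3, whose library name holds another number, the proximal tubule and podocyte scores (1.22 and 1.28) exceeded those of control 4 (0.95 and 0.73). The loop and distal score of mutant 3 did not (1.43 against 2.22). The proximal tubule score was -0.60, -0.16, 1.22 and 2.40 in mutants 1 to 4, against -2.22, -0.50, -1.10 and 0.95 in controls 1 to 4, over 6 tested of 10 listed genes. The summed level of all 10 ran from 1460 to 11840 normalized counts in mutants and from 673 to 4636 in controls, and Slc34a1, Slc5a2 and Spp2 were at 0 in at least 1 library. Their part in the Dusp1, Dusp10 and Dusp14 values was not tested.

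Scores of nephron progenitor and ureteric tip markers were lower in each mutant than in each control library, where Dusp6 was lower too. The progenitor score was -0.35, -0.17, -0.67 and -0.95 in mutants 1 to 4, against 0.86, 0.45, 0.62 and 0.21 in controls 1 to 4. Of 12 progenitor markers tested, 10 had negative and 2 positive fold changes. Beside the markers called below, 0.220% of all genes tested were lower past the limma threshold. Osr1, Crym and Capn6 fell by limma (log2 fold changes -1.69, -2.87 and -0.95), none of which passed without control 3 (adjusted p from 0.0557 to 0.112). Without mutant 1 Osr1 did not pass (0.0525), without mutant 3 neither Osr1 nor Crym (0.0594 each), and without mutant 4 or control 1 Crym did not (0.0650 and 0.0888). The summed level of the progenitor markers ran from 6537 to 12600 normalized counts in mutants and from 20654 to 36521 in controls. The ureteric tip score was 0.039, -0.11, -0.64 and -1.11 in mutants 1 to 4, against 0.42, 0.65, 0.47 and 0.28 in controls 1 to 4, with 1 of 8 markers, Gfra1, past the limma threshold and a summed level from 6719 to 13172 in mutants and from 15360 to 21489 in controls. Limma voom also called Meox1 among the progenitor markers and Wnt11 among the tip markers. The tip list includes Etv5, which is floxed in both groups. None of the progenitor or tip markers was at 0 in any library. In whole kidneys, fewer cells of a type and less RNA per cell cannot be told apart, and the part of these cell types in the Dusp values was not tested. Between mutants 1 and 2 and controls 1 and 2, which have another such number in common, the log2 difference was -0.43 for Dusp6, -0.72 for Dusp7 and -0.55 for Dusp5. Between mutant 4 and control 4 it was -0.71 for Dusp6, -0.87 for Dusp7 and -0.43 for Dusp5. The meaning of these numbers is not given in the labels. All 10 Dusp genes lay on the same side under both, as did 56.4% of all genes tested.

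**Figure D4:**
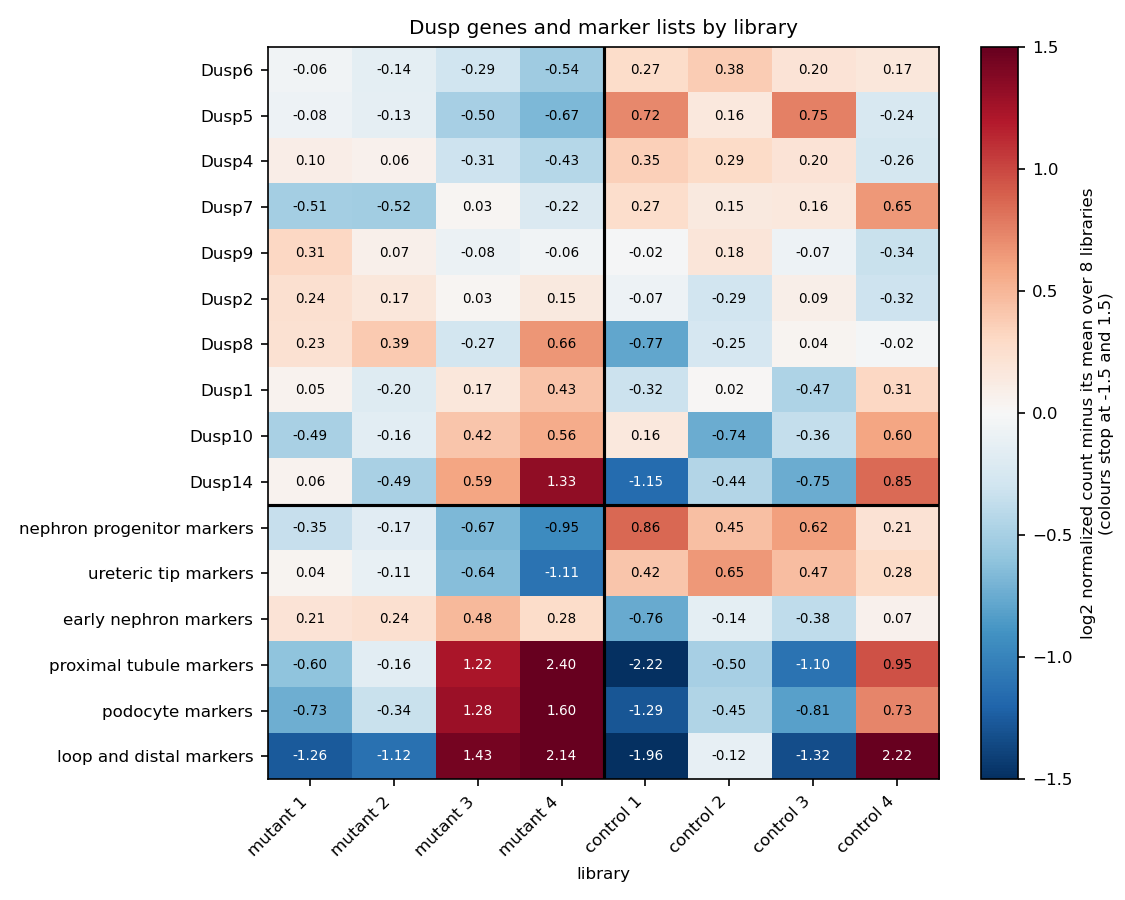
Log2 normalized count of each Dusp gene and score of each marker list, as deviations from the mean over the 8 libraries, with mutants left of controls; red is above the mean, blue below, and each cell prints its value. Dusp6 is negative in all 4 mutants and positive in all 4 controls, while Dusp14 and the proximal tubule score are above 0.5 in mutants 3 and 4 and control 4.

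The early nephron list, whose genes mark the first epithelial structures, had positive fold changes in 10 of 10 genes and 0 past the limma threshold, with a median of 0.50; limma voom called 1, Pax8. Endothelial markers were positive in 10 of 10, macrophage markers in 9 of 10, podocyte markers in 7 of 7, ureteric trunk markers in 8 of 10 and loop and distal markers in 5 of 6, with 0 past the threshold in each list by limma or by limma voom. Stroma markers divided 5 to 5, and erythroid markers had 5 positive and 3 negative.

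The wider ERK pathway is given for comparison, from lists chosen with earlier results of these data known. Of 12 other feedback inhibitors of FGF and ERK signalling tested, 1 fell and 0 rose: Spry4, a Sprouty protein that dampens signals from receptor tyrosine kinases. Spry4 averaged 275 ± 43.5 normalized counts in mutants and 595 ± 79.9 in controls (SD, n = 4 each), and limma gave -1.12 as the log2 fold change (SE 0.16, adjusted p = 0.0219). The list had 11 of 12 negative and a median of -0.21. Without depth correction the median was 0.26, beside 0.48 for all genes. Of the 12, 5 had an unadjusted limma p below 0.05 with the mutants lower and 0 with them higher. Over all genes tested, 5.72% had such a p in the lower direction. Spry4 did not pass without mutants 1, 2 or 3 (adjusted p from 0.0562 to 0.0737) or without controls 1 or 3 (0.108 and 0.126), and it passed in 13 of 23 other fits in all, where Dusp6 passed in 3. Of 15 FGF and RET ligands and receptors, 8 had an unadjusted limma p below 0.05 in the lower direction and 1 in the higher. By the adjusted p, 2 of the 15 fell, as did 0.220% of all genes tested. The 2 were Fgf20, a ligand made by nephron progenitors (log2 fold change -2.53, SE 0.40, limma adjusted p = 0.0386), and Gfra1, the GDNF co-receptor (log2 fold change -1.24, SE 0.20, limma adjusted p = 0.0432). Fgf20 did not pass without mutants 2, 3 or 4 (adjusted p from 0.0868 to 0.132) or without controls 1, 2 or 3 (0.0769 to 0.168). Gfra1 did not pass when any library other than control 4 was left out (0.0599 to 0.180). Gfra1 and Ret are also among the tip markers above and Gdnf among the progenitor markers, so these lists are not independent.

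Kinases and adaptors of the pathway had fold changes in both directions. Beside the counts below, 12.0% of all genes tested had an unadjusted limma p below 0.05. Of 21 genes from receptor adaptors to ERK, 0 passed by limma, 3 had an unadjusted p below 0.05, and the median was -0.032. Fold changes ran from -0.36 for Braf, an ERK-pathway kinase (SE 0.13, limma adjusted p = 0.308), to 0.41 for the scaffold Ksr1 (SE 0.13, limma adjusted p = 0.231). Of 16 JNK and p38 cascade genes 0 passed by limma and 1 had an unadjusted p below 0.05, Mapk12, a p38 kinase (-0.34, SE 0.14, limma adjusted p = 0.382); Atf2, a transcription factor downstream, was next at -0.12. Of 19 other dual-specificity phosphatases 0 passed by limma and 4 had an unadjusted p below 0.05, led by Dusp3, a small phosphatase of ERK and JNK (-0.39, SE 0.11, limma adjusted p = 0.177), and Styx, a catalytically inactive relative (0.35, SE 0.12, limma adjusted p = 0.283). Limma voom also called 0 genes of these 3 lists. Without depth correction their medians were 0.44, 0.41 and 0.43, beside 0.48 for all genes.

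Immediate early genes, which respond to the same kinases and to tissue handling, did not move one way. Of 18 tested 0 passed by limma, 4 had an unadjusted p below 0.05 (12.0% of all genes had one), and the median was -0.0083. Jun, a subunit of AP-1, averaged 3235 ± 318 normalized counts in mutants and 2336 ± 70.6 in controls (SD, n = 4 each), and limma gave 0.46 as the log2 fold change (SE 0.08, adjusted p = 0.0688). Ier2, a nuclear protein induced by growth factors, averaged 1520 ± 66.4 in mutants and 2036 ± 124 in controls, and limma gave -0.42 as the log2 fold change (SE 0.08, adjusted p = 0.0688), which became 0.049 without depth correction. The groups did not overlap for Jun or for Ier2, and limma voom called 0 of the 18.

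The genes most like each class leader were found by the root mean square difference of centred log2 normalized counts over the 8 libraries. For Dusp6 they were the unnamed gene ENSMUSG00000090486 at 0.078 log2 units, Xrcc3 at 0.087 and Tcf7, a Wnt effector, at 0.094. For Dusp5 they were Myo10 at 0.075, Peg12 at 0.10 and Xylt1 at 0.11, and for Dusp8 they were Kcnj8 at 0.12, Pkp2 at 0.13 and Ccdc68 at 0.17. Their limma adjusted p ran from 0.165 to 0.761, so none of these 9 genes passed. Near neighbours are to be found for any profile among 14974 genes, so the list is a description.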

How the data were processed

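PolyA-selected RNA of 4 mutant and 4 control kidney pairs underwent paired-end sequencing, per the labels' protocols. The submitters' processing notes name fastp 0.23.2, kallisto 0.46.0, DESeq2 1.40.2 and build mm10, without their roles. The deposited log2 table is named as normalized, but per its values it holds log2(estimated count + 1), uncorrected for depth: 73.4% of back-transformed values were whole within 1e-06, and library totals differed. The authors' second table gives, per the file headers, for each of 644 genes its log2 fold change, p-values, a score named stat, and the signal of the gene as a mean normalized count; no source used here says how the genes were chosen.

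Back-transformed estimated counts were scaled with size factors from the median of ratios (0.361 in control 4, 1.07 to 1.27 elsewhere). Where at least 4 libraries had at least 10 normalized counts, log2(normalized count + 1) was fitted on genotype alone with limma 3.58.1 in R 4.3.3 (eBayes, trend on); two-sided p-values of these 14974 genes were adjusted by Benjamini-Hochberg, and 0.05 was the threshold. The pseudocount of 1 shrinks the fold changes of low genes. Totals of 15515139 to 39548327 estimated counts set the counting precision, which is lowest in control 4. Levels per kilobase use the union of GENCODE M21 exons on GRCm38, the assembly of mm10. In simulated data for this comparison (15000 genes), 65.7% of changes of 1 log2 unit and 92% of changes of 2 were recovered, and 4.27% of calls fell on unchanged genes. Changes below 1 log2 unit, such as those of all 10 Dusp genes, and deviations shared by the genes of a library were not simulated.

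The members and lists were chosen with earlier results of these data known. Named genes are the 10 members, Etv4 and Etv5, up to 4 genes past the threshold (otherwise the 2 with the smallest p) of each pathway list, and the 3 nearest profiles of each class leader; marker genes that passed, and ratio pairs, were chosen with their values in view. Alternatives covered filters, pseudocounts, scaling, trend, voom, library weights, blocks and libraries left out. One marker list is not reported here. No libraries were identical. Figures were drawn with matplotlib 3.10.9.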

Additional observations from a re-analysis of the deposited data

Results flagged for a closer look

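Of 30 groups of 4 libraries examined (the 10 Dusp genes, Etv4, Etv5 and the 3 ratios of cytoplasmic ERK-selective genes, in each genotype), 1 held a library far from the others, where chance flags about 1 in 20. Etv4 had 2311 normalized counts in control 4, against 2803 to 2816 in controls 1 to 3, and the gap was 0.974 of the range of the group. Control 4 was also the shallowest library, and its part in this value was not tested.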

How the results depend on the processing

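The number of Dusp genes past the limma threshold was 0 in 20 of 23 other fits. It was 3 with library weights (Dusp5, Dusp6 and Dusp7; control 4 was weighted 0.196 and control 3 3.43), 1 without mutant 4 and control 4 (Dusp6) and 1 with the title number as a replicate block (Dusp6, adjusted p = 0.0415). Same-numbered libraries did not deviate together in every pair (correlations 0.27, 0.098, -0.13 and 0.35 for numbers 1 to 4), so the number was not taken to pair the samples. Over all genes, 45 passed (12 higher, 33 lower); 11 passed with scaling by total count, 80 without depth correction (62 higher, 18 lower), 28 without trend, 69 with voom, 748 with library weights, 133 with the replicate block, 179 without mutant 4 and control 4, 17 in mutants 1 and 2 and controls 1 and 2 alone, and 2 (without control 3) to 161 (without control 4) when 1 library was left out. Scaling by total count moved the median of all genes to 0.14. Directions of 8 Dusp genes held in all 23 fits. Dusp4 was 0.18 without depth correction, and Dusp10 was -0.035 with the library-name number as a block, -0.032 in mutants 1 and 2 and controls 1 and 2 alone, and from -0.052 (without control 2) to 0.40 (without control 4) when 1 library was left out. Without depth correction Dusp3 was 0.078, Braf 0.11, Mapk12 0.12, Atf2 0.35 and Ier2 0.049, and Atf2 was 0.012 with scaling by total count; the medians of all genes were 0.48 and 0.14 under these settings. Dusp6 ran from -0.59 to -0.42 (adjusted p from 0.0600 to 0.276) when 1 library was left out. Control 4, with 15515139 estimated counts, was the shallowest library.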
